A study of Mus musculus with 6 samples.

Results

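The interleukin-1 system is described here as 9 genes of the 24411 in the deposited count table, taken by symbol: the ligand genes Il1a, Il1b and Il18, the antagonist gene Il1rn, the receptor genes Il1r1, Il1r2 and Il1rap, and Casp1 and Nlrp3 of the inflammasome. All 9 symbols were found, and all 9 were among the 13403 genes that passed the filter on low counts. RNA was sequenced from brain microglia of C57BL/6J mice aged 8 weeks, in 3 libraries of Mir137 knockout mice (gKO) and 3 libraries of wild-type mice (gWT). The labels do not tie libraries to single mice, so a p-value here measures spread among libraries only, and that spread may be technical. The comparison asks what the loss of miR-137 changes in microglial transcripts.

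Interleukin-1α and interleukin-1β are agonist cytokines that bind the same receptor, and microglia are a main source of both in the brain. Interleukin-1β and interleukin-18 are made as inactive precursors, which the protease caspase-1 cleaves after it is activated on an inflammasome such as that of NLRP3. Signalling needs the receptor IL1R1 and its accessory chain, is blocked by the antagonist encoded by Il1rn, and is buffered by the decoy receptor IL1R2.

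The sequence of the microRNA is shown because its seed sets which transcripts it can pair with. Mature miR-137-3p (RefSeq, GRCm38.p6, chr3:118433901-118433923, plus strand) is printed 5′ to 3′ with bases 2 to 8, the seed, in capitals.
mmu-miR-137-3p: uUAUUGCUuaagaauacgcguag
The complement of the seed is the 7-letter site AGCAATA. In the longest coding transcript of each gene in GENCODE M21 (GRCm38), the 3′ UTR of 1 of the 9 genes, Il1rap, held this site, and 9.67% of 19906 coding genes of the table held it. The site lies at chr16:26715227-26715233 (plus strand), at base 159 of the UTR, and is shown with its flanks and with the match in capitals.
Il1rap site: ctgcctctcAGCAATActaagcgtta
Casp1 held the last 6 of these 7 letters, at chr9:5307254-5307259 (plus strand), and Il1rap held a second such match, each followed by an A. The share of all genes that hold the 6-letter match was not counted. A match describes letters only and does not show pairing. Il1a, Il1b and Il18 held neither the 7-letter nor the 6-letter match in their 3′ UTRs.

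The promoters of Il1a and Il1b are shown because these neighbouring genes are the agonists of the system. They lie on the minus strand of chromosome 2, Il1a at 129299610 to 129309972 and Il1b at 129364570 to 129371139, with 54597 bases between them. Each window (RefSeq, GRCm38.p6) runs from 250 bases before to 50 bases after the annotated start, is read 5′ to 3′ on the minus strand, and has motif matches in capitals. The windows are chr2:129309923-129310222 for Il1a and chr2:129371090-129371389 for Il1b.
Il1a promoter: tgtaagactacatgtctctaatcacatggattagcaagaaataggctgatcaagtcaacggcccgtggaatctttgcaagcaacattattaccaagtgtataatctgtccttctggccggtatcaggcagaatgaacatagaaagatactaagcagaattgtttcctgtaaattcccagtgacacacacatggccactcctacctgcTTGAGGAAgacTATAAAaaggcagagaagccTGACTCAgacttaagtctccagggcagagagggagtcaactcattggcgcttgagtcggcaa
Il1b promoter: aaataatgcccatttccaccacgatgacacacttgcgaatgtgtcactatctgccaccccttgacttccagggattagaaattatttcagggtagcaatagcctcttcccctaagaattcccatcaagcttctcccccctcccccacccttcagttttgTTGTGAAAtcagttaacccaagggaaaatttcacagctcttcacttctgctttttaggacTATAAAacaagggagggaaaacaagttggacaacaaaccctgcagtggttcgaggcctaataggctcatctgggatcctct
Both strands were searched for 4 sets of letters, which may overlap: TATAAA for a TATA box, TGANTCA for AP-1, TTNCNNAA for C/EBP and a consensus for NF-κB. In the Il1a window the C/EBP letters start 43 bases, the TATA letters 32 bases and the AP-1 letters 12 bases before the start site. In the Il1b window the C/EBP letters start 91 bases and the TATA letters 31 bases before it. Of all 32851 promoter windows, 40.7% held the C/EBP letters, 13.6% the TATA letters, 7.81% the AP-1 letters and 4.79% the NF-κB letters. Among windows of the other 7 genes, the NF-κB letters were found for Il1rn and Nlrp3.

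The libraries held 14603884 to 17652976 counts in gKO and 16328561 to 17306422 in gWT. Mir137 had 0 counts in all 6 libraries, so it gives no check of the genotype. Xist had 0, 0 and 8 counts in gKO replicates 1, 2 and 3, against 2519, 2000 and 1830 in gWT. The Y-linked gene Ddx3y had over 1000 counts in all 6. It had 87.1, 104 and 104 CPM (counts scaled to library size by TMM) in gKO, against 71.9, 75.0 and 76.8 CPM in gWT, without overlap. The labels do not give the sex of the mice, and whatever sets Xist and Ddx3y cannot be told apart from genotype here. The 12 microglial markers summed to 45800, 43100 and 46200 CPM in gKO and to 42400, 45000 and 45600 CPM in gWT. The 9 markers of T and NK cells in the table summed to 8.36, 8.44 and 9.54 CPM in gKO and to 9.66, 8.80 and 8.90 CPM in gWT, with 2 of them at 0 in all libraries. On the leading principal component (39.0% of the variance) gKO replicate 3 lay at 91.5 and the other 5 libraries between -37.7 and -3.50. Its deviation from the mean of all libraries fell with transcript length (Spearman rho = -0.54 across 12610 genes, which are not independent replicates), where rho was 0.26 and 0.32 for the other gKO libraries, and 0.26, -0.03 and 0.10 for gWT libraries.

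The interleukin-1 genes fell into short transcripts that were high in gKO replicate 3 and long ones that were low there. In the 6 genes with transcripts of 885 to 2474 bases, the level in gKO replicate 3 was 1.38 times (Il1b) to 1.92 times (Il1rn) the mean of gKO replicates 1 and 2. In the 3 genes with transcripts of 4021 to 5819 bases it was 0.634 times (Il1r1) to 0.827 times (Il1rap) that mean. Over all tested genes, the median log2 difference between gKO replicate 3 and the mean of the other 2 was 0.77 in transcripts up to 1500 bases and -0.51 in those longer than 4500 bases. Values without this library stand beside the results below that it moves.

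**Figure D1:**
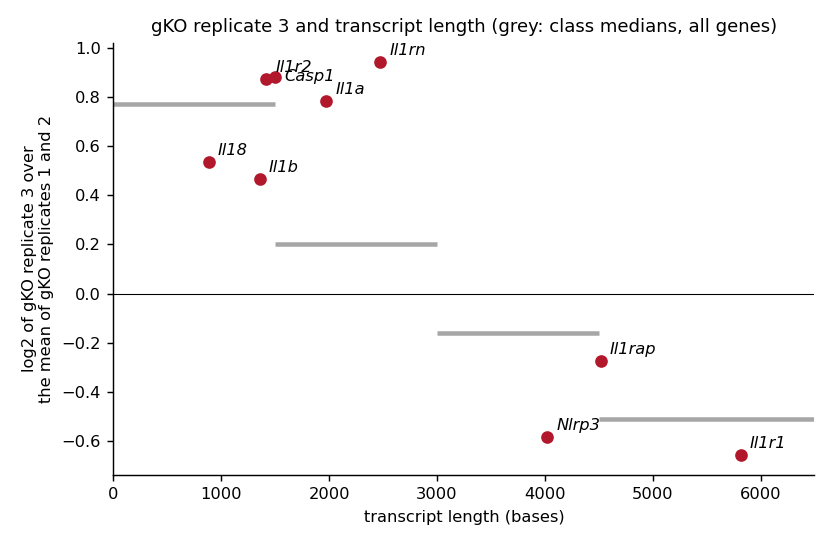
Log2 of the level in gKO replicate 3 over the mean of gKO replicates 1 and 2, against the transcript length in bases, for the 9 interleukin-1 genes (points), with the median of all tested genes in each of 4 length classes (grey bars). The 6 shorter transcripts lie above 0 and the 3 longer ones below it, as the class medians do.

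Il1b and Il18 were each more than 2-fold higher in gKO without overlap between the groups. In edgeR's quasi-likelihood test neither passed an adjusted p under 0.05, and 0 of the 9 genes did, where 0.627% of the 13403 genes tested did (84 genes), 0.395% higher in gKO. DESeq2 called 2 of the 9, Il1b and Il18, where it called 3.54% of genes (1.63% higher), and limma-voom with sample quality weights called the same 2, where it called 3.42% (2.13% higher). EdgeR without the filter on low counts called 1, Il1b, where it called 0.654% (0.369% higher). With each library's trend over transcript length removed, edgeR called 1, Il1b again, where it called 2.1% (1.14% higher). At an unadjusted edgeR p under 0.05 there were 4 of the 9, Il1a, Il1b, Il1r2 and Il18, all higher, where 10.9% of genes tested were under it in either direction and 5.16% higher. The groups did not overlap in 5 of the 9, where 21.3% of genes tested did not overlap (10% higher and 11.3% lower): Il1a, Il1b, Il18 and Il1r2 were higher and Il1r1 lower in every gKO library than in any gWT library. The median log2 fold change of the 9 genes was 0.53, against 0.01 over all genes tested. It was 0.16 without gKO replicate 3, against -0.02 over all genes, and 0.32 without gWT replicate 1.

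**Figure D2:**
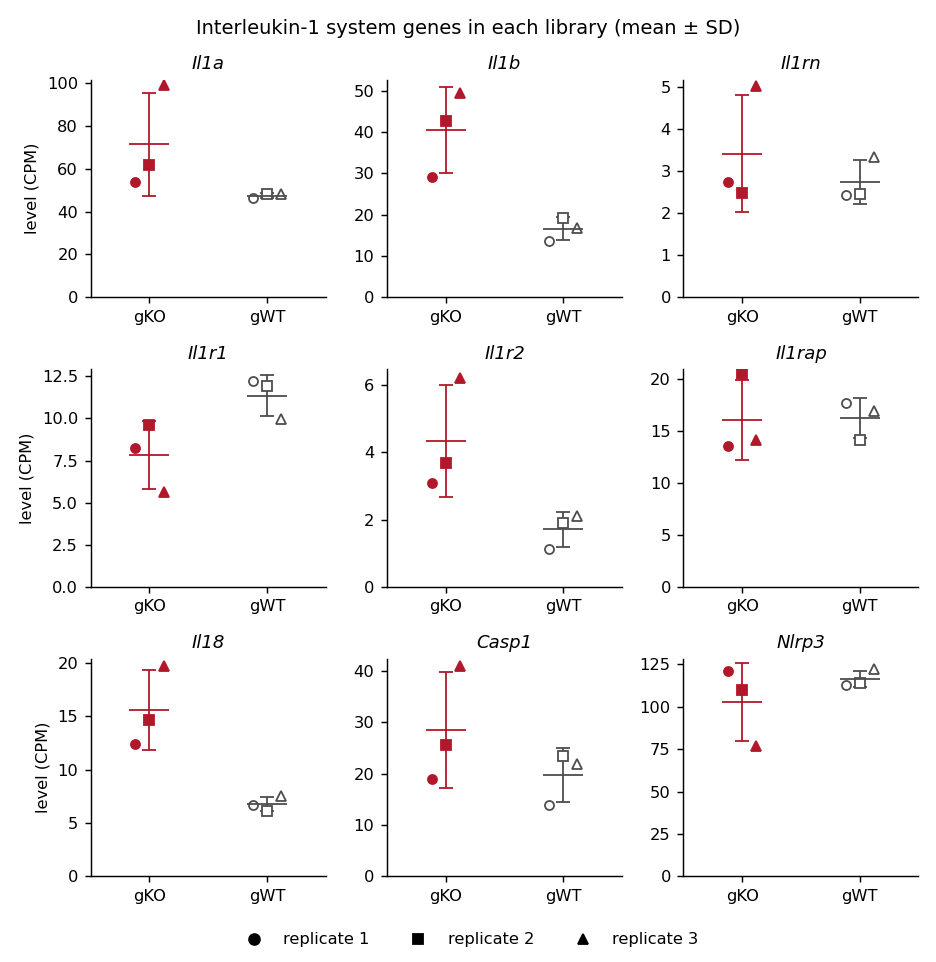
Level in CPM, from 0 upward, of each of the 9 genes in the 3 gKO libraries (filled) and the 3 gWT libraries (open), with marker shape for the replicate number, a bar for the mean and whiskers for the SD. Il1b, Il18 and Il1r2 separate the groups by the widest margins relative to their level, and gKO replicate 3 (triangle) is the highest gKO library for 6 genes and the lowest for Il1r1 and Nlrp3.

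Il1b, which encodes interleukin-1β, had 29.1, 42.8 and 49.5 CPM in gKO replicates 1, 2 and 3, against 13.7, 19.3 and 16.8 CPM in gWT. The lowest gKO library was above the highest gWT library. The gKO mean was 40.5 ± 10.4 CPM and the gWT mean 16.6 ± 2.80 CPM (SD, n = 3 each), a 2.44-fold difference with a log2 fold change of 1.28 (SE 0.24, edgeR adjusted p = 0.0733). The adjusted p was 0.000215 in DESeq2 and 0.00215 in voom with quality weights. Without gKO replicate 3 the log2 fold change was 1.10 and Il1b was called by edgeR (adjusted p = 0.00393), as 7.81% of the genes were in that fit (3.99% higher). The authors' deposited table lists Il1b among the genes higher in gKO, at 1.29 on the log2 scale (SE 0.27, adjusted p = 0.000297).

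Il18, the gene of the second cytokine that caspase-1 matures, lies on chromosome 9 at 50554827 to 50581840. It had 12.4, 14.7 and 19.7 CPM in gKO, against 6.66, 6.17 and 7.50 CPM in gWT, so that every gKO library exceeded every gWT library. The gKO mean was 15.6 ± 3.72 CPM and the gWT mean 6.78 ± 0.670 CPM (SD, n = 3 each), with a log2 fold change of 1.20 (SE 0.26, edgeR adjusted p = 0.116). The adjusted p was 0.00294 in DESeq2, 0.0258 in voom with quality weights and 0.0332 in edgeR without gKO replicate 3, where the log2 fold change was 0.99. The authors' deposited table lists Il18 as higher in gKO too, at 1.20 on the log2 scale (SE 0.31, adjusted p = 0.00660). These are the only genes of the 9 among its 75 higher and 201 lower genes.

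Il1a, the gene of interleukin-1α, had 53.6, 61.6 and 99.0 CPM in gKO, against 46.3, 48.1 and 48.0 CPM in gWT. The groups did not overlap, and most of the difference in means came from gKO replicate 3. The log2 fold change was 0.59 (SE 0.23, edgeR adjusted p = 0.400) with all libraries and 0.27 (SE 0.12, adjusted p = 0.179) without that library. The gWT libraries lay close together, at 47.5 ± 1.02 CPM (SD, n = 3), whereas the gKO libraries lay at 71.4 ± 24.2 CPM (SD, n = 3).

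The balance between the agonists was followed as the ratio of their counts in each library. There were 1.84, 1.44 and 2.0 Il1a counts per Il1b count in gKO, against 3.37, 2.49 and 2.86 in gWT. The log2 ratio was 0.80 ± 0.25 in gKO and 1.53 ± 0.22 in gWT (SD, n = 3 each), a difference of -0.73, with no overlap and an exact two-sided permutation p of 0.10, the smallest that 3 libraries against 3 allow. A ratio of counts within a library does not depend on how libraries are scaled.

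Il1rn, on chromosome 2 at 24336853 to 24351494, encodes the receptor antagonist, which occupies IL1R1 without signalling. It had 2.75, 2.47 and 5.02 CPM in gKO, against 2.42, 2.46 and 3.34 CPM in gWT, from 36 to 71 counts per library. The groups overlapped, and the log2 fold change of 0.32 (SE 0.46, edgeR adjusted p = 0.863) was -0.08 (SE 0.54) without gKO replicate 3. There were 0.0335, 0.0240 and 0.0340 Il1rn counts per count of Il1a and Il1b together in gKO, against 0.0407, 0.0368 and 0.0520 in gWT. Every gKO library had the lower ratio. The log2 ratio averaged -5.05 ± 0.29 in gKO and -4.55 ± 0.26 in gWT (SD, n = 3 each), a difference of -0.50 (exact two-sided permutation p = 0.10, the smallest possible here).

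**Figure D3:**
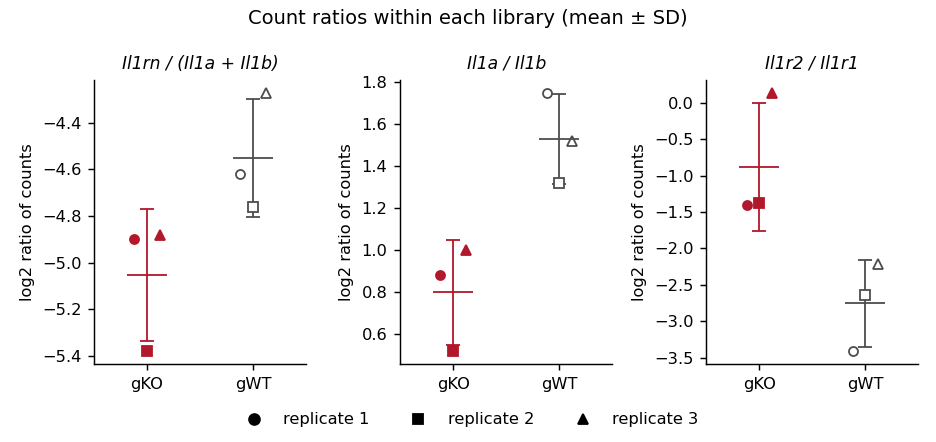
Log2 ratio of counts within each library for Il1rn over Il1a plus Il1b, Il1a over Il1b, and Il1r2 over Il1r1, in gKO (filled) and gWT (open), with mean and SD; the vertical axes do not start at 0. In all 3 panels the gKO libraries lie apart from the gWT libraries, and gKO replicate 3 is well above the other gKO libraries for Il1r2 over Il1r1.

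Il1r2 and Il1r1 lie side by side on the plus strand of chromosome 1, at 40074079 to 40125231 and 40225080 to 40317257, and had fold changes of opposite sign. Il1r2, which encodes the decoy receptor that binds the cytokines without signalling, had 3.09, 3.70 and 6.22 CPM in gKO, against 1.12, 1.89 and 2.11 CPM in gWT. The groups did not overlap, and the counts were low, at 54 to 88 per gKO library and 19 to 36 per gWT library. Its log2 fold change of 1.34 was the highest of the 9 genes but had the largest SE, 0.49 (edgeR adjusted p = 0.377), and it was 0.98 (SE 0.60) without gKO replicate 3. DESeq2 did not call it either (adjusted p = 0.161).

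Il1r1 encodes the signalling receptor, which in the mouse brain is known chiefly from endothelial cells. It had 8.24, 9.60 and 5.66 CPM in gKO, against 12.2, 11.9 and 9.96 CPM in gWT, with the highest gKO library just under the lowest gWT library. The log2 fold change was -0.54 (SE 0.27, edgeR adjusted p = 0.539), or -0.36 (SE 0.25) without gKO replicate 3. The 12 endothelial markers summed to 787, 793 and 614 CPM in gKO, against 1590, 1240 and 1270 CPM in gWT. All 12 had a negative fold change (median log2 value -0.89), where 6582 of the 13403 genes tested did. EdgeR called 1 of the 12 lower, where it called 31 of all genes tested lower. Cldn5, a tight-junction gene that defines brain endothelium, had 116, 125 and 141 CPM in gKO and 290, 253 and 235 CPM in gWT. Lower marker levels were not particular to endothelium. All 8 fibroblast markers had a negative fold change (median log2 value -1.27), with 3 called lower by edgeR. Of the 8 mural cell markers, 7 were negative and 1 positive (median -1.27), with 1 called lower. In bulk libraries fewer cells of a type and less RNA per cell cannot be told apart. The part of endothelial, fibroblast or mural RNA in the Il1r1 value was not tested.

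Il1r2 and Il1b are also known neutrophil transcripts, and the summed levels of the listed neutrophil markers were higher in gKO. The 14 neutrophil markers in the table summed to 963, 938 and 1380 CPM in gKO, against 593, 710 and 700 CPM in gWT. All 14 had a positive fold change, where 6821 of the 13403 genes tested did. EdgeR called 2 of the 14 higher, where it called 0.395% of all genes tested higher. S100a8 had 51.6, 56.6 and 207 CPM in gKO, against 32.1, 55.6 and 49.2 CPM in gWT. The groups overlapped, and its log2 fold change of 1.20 (SE 0.52) was 0.24 (SE 0.18) without gKO replicate 3. For S100a9, whose groups did not overlap, the values were 1.11 (SE 0.38) and 0.51 (SE 0.16). The 10 monocyte markers summed to 578, 540 and 579 CPM in gKO, against 311, 285 and 282 CPM in gWT. Of these, 3 were called higher by edgeR (0.395% over all genes). The 10 markers of border macrophages summed to 3490, 3660 and 2490 CPM in gKO, against 3390, 3330 and 3280 CPM in gWT, with none called. The part of these cells in the Il1b, Il1r2 and Il18 values was not tested.

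The count ratio of the decoy to the signalling receptor was 0.377, 0.388 and 1.10 in gKO, against 0.0940, 0.160 and 0.214 in gWT. The log2 ratio averaged -0.88 ± 0.88 in gKO and -2.76 ± 0.60 in gWT (SD, n = 3 each), a difference of 1.88 without overlap (exact two-sided permutation p = 0.10, the smallest possible here). Without gKO replicate 3, where the short Il1r2 transcript was high and the long Il1r1 transcript low, the difference was 1.37. Il1rap, which encodes the accessory chain that IL1R1 needs to signal, had 13.5, 20.5 and 14.1 CPM in gKO, against 17.7, 14.1 and 16.9 CPM in gWT. The groups overlapped widely, with a log2 fold change of -0.02 (SE 0.24, edgeR adjusted p = 0.988) in the 1 gene of the 9 whose 3′ UTR holds the 7-letter site AGCAATA.

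The groups overlapped in both genes of cytokine maturation. Casp1, the gene of caspase-1, had 18.9, 25.5 and 40.9 CPM in gKO, against 13.8, 23.5 and 21.8 CPM in gWT. The groups overlapped, and the log2 fold change of 0.53 (SE 0.32, edgeR adjusted p = 0.624) was 0.16 (SE 0.23) without gKO replicate 3. Nlrp3, the gene of the sensor that nucleates the inflammasome, had 121, 110 and 76.8 CPM in gKO, against 113, 114 and 122 CPM in gWT. Its log2 fold change of -0.18 (SE 0.18, edgeR adjusted p = 0.777) was -0.02 (SE 0.08) without gKO replicate 3, the only gKO library that lay far outside the gWT range.

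**Figure D4:**
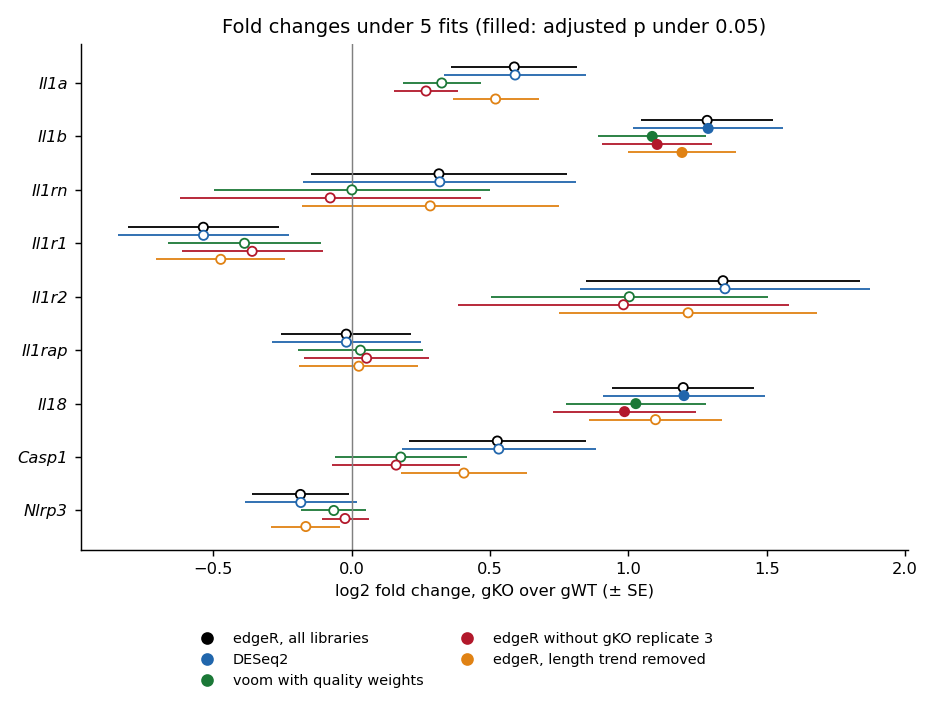
Log2 fold change of gKO over gWT with its SE for the 9 genes under 5 fits, filled where the adjusted p is under 0.05. Il1b is filled in 4 of the fits and Il18 in 3, and the remaining 7 genes in none.

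Levels of different genes were compared as CPM per kilobase of transcript. In gKO the order was Il1a (36.2 ± 12.3), Il1b (29.8 ± 7.65), Nlrp3 (25.5 ± 5.67), Casp1 (19.0 ± 7.53), Il18 (17.6 ± 4.21), Il1rap (3.55 ± 0.860), Il1r2 (3.06 ± 1.17), Il1rn (1.38 ± 0.565) and Il1r1 (1.35 ± 0.345; SD, n = 3 for each). In that group the library ranges of neighbours overlapped throughout the order except between Il18, at 14.0 to 22.2, and Il1rap, at 2.99 to 4.54, and between Il1r2, at 2.18 to 4.38, and Il1rn, at 0.998 to 2.03. In gWT the order was Nlrp3 (29.0 ± 1.22), Il1a (24.1 ± 0.517), Casp1 (13.2 ± 3.44), Il1b (12.2 ± 2.06), Il18 (7.66 ± 0.758), Il1rap (3.59 ± 0.415), Il1r1 (1.95 ± 0.211), Il1r2 (1.20 ± 0.366) and Il1rn (1.11 ± 0.211; SD, n = 3 for each). There the ranges of Casp1 and Il1b overlapped, as did those of Il1r2 and Il1rn, and no other neighbours did. Agonist, sensor and protease transcripts were thus more abundant per length than the receptors and the antagonist in both genotypes.

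The other genes of the family and its signalling were followed in 59 genes in 6 groups, of which 51 passed the filter. EdgeR called 1 higher and 0 lower, with 10 at an unadjusted p under 0.05 (10.9% over all genes), and the median log2 fold change was 0.23, against 0.01 over all genes tested. DESeq2 called 4, where it called 3.54% of all genes, and voom with quality weights 5, where it called 3.42%. The groups did not overlap in 23 of the 51, 18 higher and 5 lower, where 21.3% of all genes did not overlap (10% higher and 11.3% lower). The called gene was Tnfaip3, the 1 of 6 other inhibitors called, which encodes the enzyme A20 that shuts off signalling from this receptor to NF-κB. It rose to 244, 269 and 182 CPM in gKO, against 97.6, 108 and 115 CPM in gWT (log2 fold change 1.12, SE 0.17, adjusted p = 0.0346 in edgeR). The authors' deposited table lists it as higher too, with a log2 fold change of 1.12. Without gKO replicate 3, edgeR called 7 pathway genes higher and 1 lower, where it called 7.81% of all genes. Without any 1 of the other 5 libraries it called 0 pathway genes, and it called few or no genes anywhere. Over all genes tested, it called 4 higher and 1 lower without gKO replicate 1. The numbers were the same without gKO replicate 2, and 0 without any gWT library.

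Among the 6 other ligand genes, 4 were listed at 0 counts in all libraries and 2 were tested, with 0 called. Il1f9, the gene of interleukin-36γ, had 2.18, 2.88 and 0.919 CPM in gKO, against 0.884, 0.514 and 0.996 CPM in gWT (log2 fold change 1.31, SE 0.76). Il33, an alarmin gene of glia, had 2.06, 0.274 and 0.990 CPM in gKO, against 0.295, 0.972 and 0.703 CPM in gWT. Both overlapped between the groups.

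Of 7 other receptor genes, 4 were tested and 0 called by edgeR, and 3 did not overlap between the groups (21.3% over all genes), 2 of them higher and 1 lower in gKO. Il1rl1, which encodes the interleukin-33 receptor, had 29.4, 20.7 and 24.2 CPM in gKO, against 19.0, 17.1 and 14.8 CPM in gWT (log2 fold change 0.55, SE 0.21, edgeR adjusted p = 0.384). Il18rap, the accessory chain of the interleukin-18 receptor, had 4.47, 5.01 and 6.86 CPM in gKO, against 0.648, 3.20 and 1.58 CPM in gWT (log2 fold change 1.58, SE 0.58, edgeR adjusted p = 0.377). Il18r1, the ligand-binding chain of that receptor, had counts of 0, 0 and 5 in gKO, against 0, 2 and 1 in gWT, and did not pass the filter. Il1rl2, the interleukin-36 receptor gene, was singled out after its values were seen: it had 14.2, 17.2 and 1.63 CPM in gKO, against 23.5, 23.0 and 26.9 CPM in gWT. Its level in gKO replicate 3 was 0.104 times the mean of gKO replicates 1 and 2, further below that mean than in any of the 9 genes. Its log2 fold change was -1.15 (SE 0.63, edgeR adjusted p = 0.576) with all libraries. Without gKO replicate 3 the log2 fold change was nearer to zero, at -0.65 (SE 0.19, edgeR adjusted p = 0.0469). In that fit edgeR called 7.81% of all genes.

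Of 15 genes of receptor signalling, edgeR called 0, with 2 at an unadjusted p under 0.05 (10.9% over all genes). DESeq2 called 0 and voom with quality weights 1 (3.54% and 3.42% over all genes). Their median log2 fold change was 0.23, with 13 positive and 2 negative, against 6821 positive and 6582 negative over all genes tested. The groups did not overlap in 5 of the 15, all higher (10% of all genes). Traf6, the ubiquitin ligase that carries the signal from the receptor complex, had 67.2, 61.1 and 56.6 CPM in gKO, against 49.3, 47.0 and 45.5 CPM in gWT (log2 fold change 0.38, SE 0.14, edgeR adjusted p = 0.361). Tab3, an adaptor of the kinase TAK1, had a log2 fold change of 0.48 (SE 0.19, edgeR adjusted p = 0.407). Without gKO replicate 3, edgeR called 2 of the 15 genes, Traf6 and Tab2, both higher, where it called 7.81% of all genes (3.99% higher). Traf6 had a log2 fold change of 0.43 (adjusted p = 0.0317) in that fit. Tab2, singled out after its values were seen, had 0.40 (adjusted p = 0.000969) there. It was also the gene called by voom with quality weights (adjusted p = 0.0201).

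In the inflammasome and secretion group, edgeR called 0 of 18 tested genes (0.627% over all genes), with 1 at an unadjusted p under 0.05 (10.9% over all genes). DESeq2 called 0 and voom with quality weights 0 (3.54% and 3.42% over all genes). The groups did not overlap in 7 of the 18, 4 higher and 3 lower, where 21.3% of all genes did not overlap (10% higher and 11.3% lower). The median log2 fold change was 0.06, with 10 positive and 8 negative, and it ranged from -0.02 (without gWT replicate 1) to 0.15 (without gKO replicate 1) when 1 library was left out. Aim2, a sensor of cytosolic DNA, had 55.5, 84.1 and 93.9 CPM in gKO, against 42.5, 54.0 and 48.3 CPM in gWT (log2 fold change 0.69, SE 0.21, edgeR adjusted p = 0.275). Brcc3, whose product removes ubiquitin from NLRP3, had a log2 fold change of 0.47 (SE 0.21, edgeR adjusted p = 0.473).

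The 6 genes for proteins that control the stability of cytokine transcripts all had fold changes above 0 (median log2 value 0.45) and 5 whose groups did not overlap, all higher (10% of all genes). EdgeR called 0, with 4 at an unadjusted p under 0.05 (10.9% over all genes), while DESeq2 and voom with quality weights each called 3 (3.54% and 3.42% over all genes). Zfp36, which encodes tristetraprolin, a protein that promotes decay of cytokine mRNAs, had 4280, 4350 and 5210 CPM in gKO, against 2730, 2960 and 2840 CPM in gWT (log2 fold change 0.70, SE 0.13, edgeR adjusted p = 0.0647, DESeq2 adjusted p = 3.54e-05). Its relative Zfp36l1 had 653, 703 and 760 CPM in gKO, against 438, 444 and 426 CPM in gWT (log2 fold change 0.69, SE 0.12, edgeR adjusted p = 0.0516, DESeq2 adjusted p = 1.91e-06). In both genes the lowest gKO library was far above the highest gWT library.

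**Figure D5:**
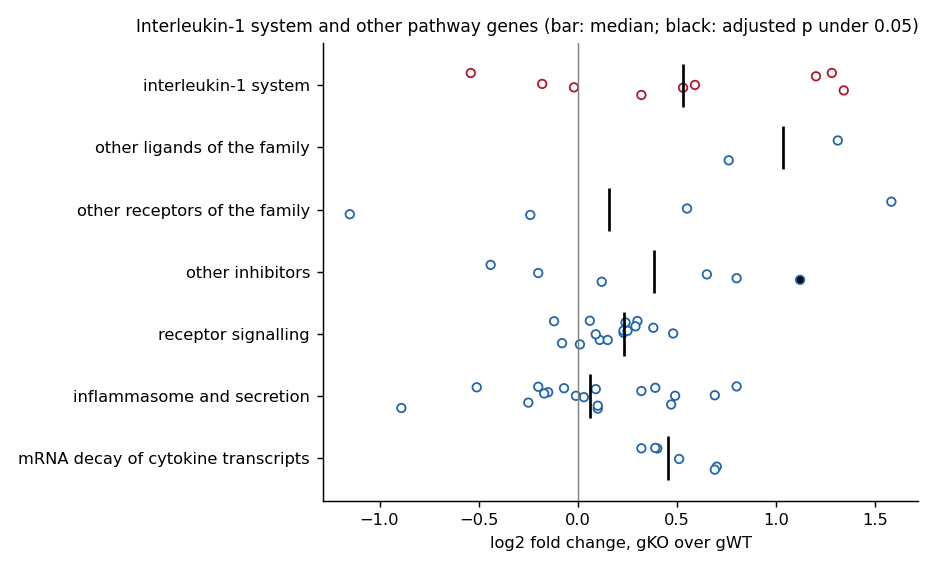
Log2 fold change of gKO over gWT for the 9 interleukin-1 genes (red) and the 51 tested genes of 6 pathway groups (blue), each point a gene, with a bar at the median of each group and black fill where the edgeR adjusted p is under 0.05. Tnfaip3, among the other inhibitors, is the 1 filled point. The 6 genes for proteins that control transcript stability, in the row labelled mRNA decay, all lie above 0.

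The genes whose profile over the 6 libraries was nearest to that of Il1b, by the root mean square difference of mean-centred log2 CPM, were Osm (0.16), Cytip (0.17) and Gpr65 (0.19). Osm, the gene of the cytokine oncostatin M, had 75.2 ± 8.17 CPM in gKO, against 34.8 ± 6.41 CPM in gWT (SD, n = 3 each), and Gpr65, a proton-sensing receptor gene, had 25.2 ± 3.88 CPM in gKO, against 9.97 ± 0.842 CPM in gWT (SD, n = 3 each). The nearest to Il1a were Zcchc7 (0.04), Scoc (0.06) and Memo1 (0.06), whose levels in gKO replicate 3 were 1.67, 1.70 and 1.70 times the mean of gKO replicates 1 and 2, against 1.72 times for Il1a. These genes were chosen for their likeness over the same libraries, so their levels are a description with no test.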

How the data were processed

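The authors deposited a table of expected counts (estimated, not normalized) with 1 row per symbol, of which 2.64% to 3.65% per library are not whole numbers. Tools named in the submitters' processing notes are RSEM, DESeq2 and STAR 2.7.9a, with builds GRCm38 and mm10; no source used here gives the annotation or the strand setting. The authors' deposited lists hold, per the file headers, p-values (raw and adjusted), a log2 fold change, 2 scores (its standard error and a test statistic) and a signal, the mean normalized count.

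Counts were rounded and fitted on all genes with edgeR 4.0.16 (TMM, default filter, robust quasi-likelihood test on genotype, Benjamini-Hochberg over 13403 genes) in R 4.3.3. Levels are CPM on TMM-scaled library sizes, with a call at an adjusted p under 0.05. SE is the absolute log2 fold change over the square root of F. Alternatives were DESeq2 1.42.0, voom with quality weights (limma 3.58.1), other scalings, no filter, the replicate number as a block, and each library left out. A fit with the trend over transcript length removed from every library was chosen after seeing the data. Ratios used raw counts with a pseudocount of 0.5 and an exact permutation test. Lengths are those of the longest coding transcript in GENCODE M21.

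The fit was tested on simulated data, where it missed most of the changes of 2-fold or less that had been put in. The 9 genes and the pathway lists were chosen with earlier results of these data known. Named were all 9 genes, per pathway group the called genes or the 2 with the smallest p, the 3 nearest profiles to Il1a and Il1b, and defining markers listed first. NAIP sensors were left out of the pathway lists.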

Additional observations from a re-analysis of the deposited data

How the results depend on the processing

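Il1b was the gene whose call moved most often: it was called by DESeq2 (log2 fold change 1.29, adjusted p = 0.000215), voom with quality weights (1.09), edgeR without the filter on low counts (1.27, adjusted p = 0.0453), edgeR with the length trend removed (1.19, adjusted p = 0.0144) and edgeR without gKO replicate 3, with a range of 1.10 to 1.47 over the 6 fits that leave out a library. Il18 was called by DESeq2 (1.20), voom (1.03) and without gKO replicate 3, with a range of 0.99 to 1.34. The number of the 9 genes called higher was therefore 2 by DESeq2, 2 by voom, 1 without the filter, 1 with the length trend removed, and 0 to 2 leaving out a library; none was called lower. Il1rn ranged from -0.08 to 0.50 and Il1rap from -0.24 to 0.09 leaving out a library, and Il1rap was 0.03 by voom and 0.03 with the length trend removed, so both changed sign. The cause was not tested.

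Over all genes, 53 were higher and 31 lower with edgeR. Higher and lower counts were 218 and 257 by DESeq2, 285 and 173 by voom, 153 and 128 with the length trend removed, and 0 to 551 and 0 to 528 leaving out a library; 47 were lower without the filter. Pathway genes called higher were 4 by DESeq2, 5 by voom, 4 with the length trend removed and 0 to 7 leaving out a library, with 0 to 1 lower. With the replicate block, 11 genes were higher and 7 lower, of which 0 were pathway genes, and Il1b was not called (adjusted p = 0.0777). Libraries of equal replicate number correlated at 0.053, -0.048 and 0.015, so the numbers do not pair them. The ratio of Il1a to Il1b differed by -0.83 to -0.59, that of Il1rn to both by -0.61 to -0.34, and that of Il1r2 to Il1r1 by 1.37 to 2.15 leaving out a library, and the sign-flip p with the replicate block was 0.25, the smallest possible. Il1rn and Il1r2 had 19 to 88 counts per library, and how much of their spread is counting error was not tested.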
